A study of Mus musculus with 18 samples.

Results

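Heme is the iron-bearing ring that cytochromes, catalase and many other enzymes use to carry electrons or oxygen. Its synthesis begins in the mitochondrion, passes through the cytosol and ends in the mitochondrion, where ferrochelatase inserts iron into the finished ring. Mammalian ferrochelatase itself holds an iron-sulfur cluster, and ISCA2, whose gene is targeted in the mutant mice, acts in mitochondrial iron-sulfur cluster assembly. The genes described here were 7 heme synthesis enzymes, Alas1, Alad, Uros, Urod, Cpox, Ppox and Fech, taken by name from the 55471 gene IDs of each oocyte file. Each of the 7 matched a single Ensembl ID.

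The series compared Isca2 mutant and wild-type mice in oocytes, sperm and blastocysts, 18 samples in all, and the oocyte files are used here. Mature oocytes, which wait for fertilization at the second meiotic metaphase (MII), were profiled by RNA-seq in 3 libraries of genotype Isca2 -/- (KO) and 3 wild-type (WT) libraries. The protocol repeated for every sample describes Isca2+/- females given 6.5 IU of pregnant mare serum gonadotropin followed after 45 to 47 h by 5 IU of chorionic gonadotropin, mated to Isca2+/- males. Its text is about embryos. Per the same protocol, RNA was amplified with a full-length kit for single cells. Strain, age, the number of oocytes per library and the way in which oocytes of genotype Isca2 -/- were obtained are not given in the sources used here. The labels name replicates but not separate animals, so the p-values cover library-to-library spread only, which may be technical. In bulk libraries fewer cells of a type and less RNA per cell cannot be told apart.

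Library depth ran from 17792157 to 30240350 expected counts. The 15 oocyte markers summed to between 24680 and 26800 CPM (counts scaled to a common library size) in every library. Isca2 had 53, 56 and 120 expected counts in the libraries labelled KO, against 14, 11 and 152 in the WT libraries. Over the 6 libraries its RNA did not separate the labels (log2 fold change 0.59, adjusted p = 0.907, edgeR). Without WT replicate 3, every library labelled KO lay above both WT libraries (2.32, 3.14 and 4.23 CPM, against 0.613 and 0.535 CPM). The log2 fold change was then 2.48 (adjusted p = 0.0969, edgeR). In those 5 libraries 28.5% of genes tested had groups that did not overlap in CPM. The deleted stretch is not given in the sources used here, and the groups are therefore called by their labels. WT replicate 3 stood apart. Its 15 macrophage and immune markers, among them Il1b (432 CPM) and Adgre1 (289 CPM), summed to 1404 CPM, against 5.93 to 10.3 CPM in the other 5 libraries. All 15 had a count there, while between 4 and 12 of them had none in each other library. Single oocyte markers differed there too, although their sum did not: Zp2 had 2135 CPM in WT replicate 3, against 112 to 602 CPM in the other 5 libraries, Zp3 had 1250 CPM, against 253 to 352, and Obox5 had 3441 CPM, against 4491 to 6148. The part of these differences in the heme enzyme values of WT replicate 3 was not tested, and results that rest on that library are given with and without it.

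None of the 7 heme synthesis enzymes was called higher or lower in the libraries labelled KO. Of 13680 genes tested with edgeR's quasi-likelihood test, 2 were called at an adjusted p under 0.05, which is 0.0146% of those tested, and both were lower. All 7 enzymes passed the filter on low counts. For none of the 7 were the groups free of overlap in CPM over the 6 libraries, as they were for 12.4% of genes tested. Their log2 fold changes lay between -0.47 for Uros and 0.16 for Fech, with a median of -0.08, beside a median of -0.04 over all genes tested. Without WT replicate 3 they lay between -0.58 for Uros and 1.35 for Ppox. Again 0 of 7 were called, where 0.651% of 14122 genes were called, and the median was 0.02, beside 0.01 over all genes. At an unadjusted p under 0.05, 0 of the 7 passed in either of these edgeR fits. Among all genes tested, 396 were higher and 451 lower at that limit in the 6 libraries, and 1084 higher and 549 lower without WT replicate 3. DESeq2, which called 0.738% of genes, and limma-voom, which called 0.0146%, also called 0 of the 7.

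**Figure D1:**
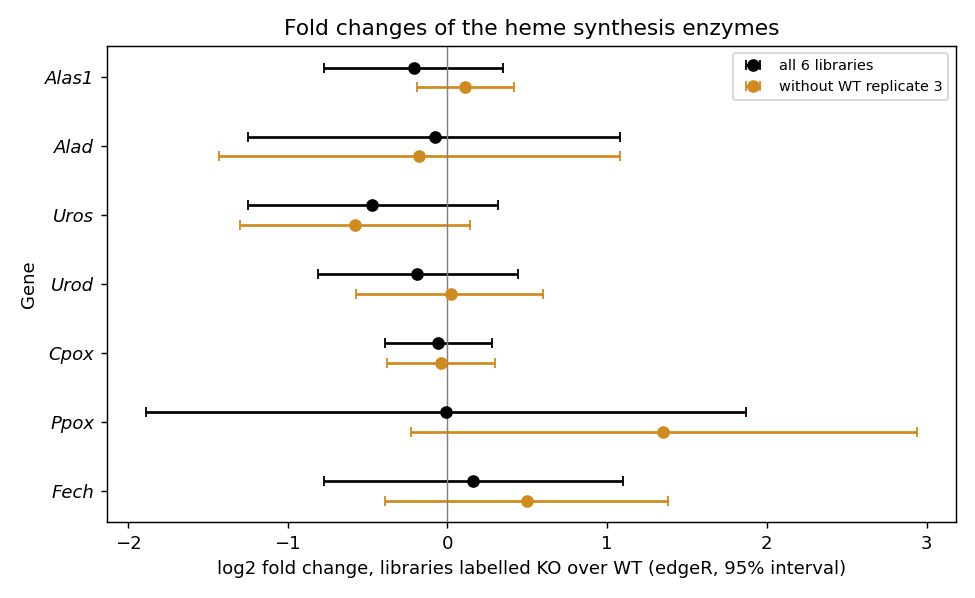
Log2 fold change (x axis) of the 7 heme synthesis enzymes (y axis) in the libraries labelled KO over the WT libraries, from edgeR, with 95% intervals as bars, for all 6 libraries (black) and without WT replicate 3 (orange). Each interval crosses 0; those of Cpox are the narrowest of the 7 in the 6 libraries (-0.39 to 0.28), and Ppox moves from -0.01 to 1.35 when WT replicate 3 is left out.

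The levels of the enzymes differed far more between genes than between groups. On the deposited TPM scale, which is per length and so allows genes to be compared, Alas1 had the highest level of the 7 in each of the 6 libraries (67.6 to 115 TPM). Cpox followed in each library (22.4 to 39.8 TPM). Uros (6.85 to 18.03 TPM) and Urod (7.09 to 12.8 TPM) came next, and their ranges overlapped. Fech (1.63 to 3.98 TPM), Alad (1.51 to 3.53 TPM) and Ppox (0.37 to 2.91 TPM) were lowest, and their ranges overlapped one another. The ranges of Alas1, Cpox, the Uros and Urod pair and the lowest trio did not overlap. Alas1 alone made up 54.2%, 55.9% and 60.3% of the summed TPM of the 7 genes in the libraries labelled KO, and 53.0%, 53.3% and 60.6% in the WT libraries. Among genes with a TPM over 0 in a library, Alas1 lay between percentiles 88.8 and 93.1 and Ppox between percentiles 22.0 and 50.8.

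**Figure D2:**
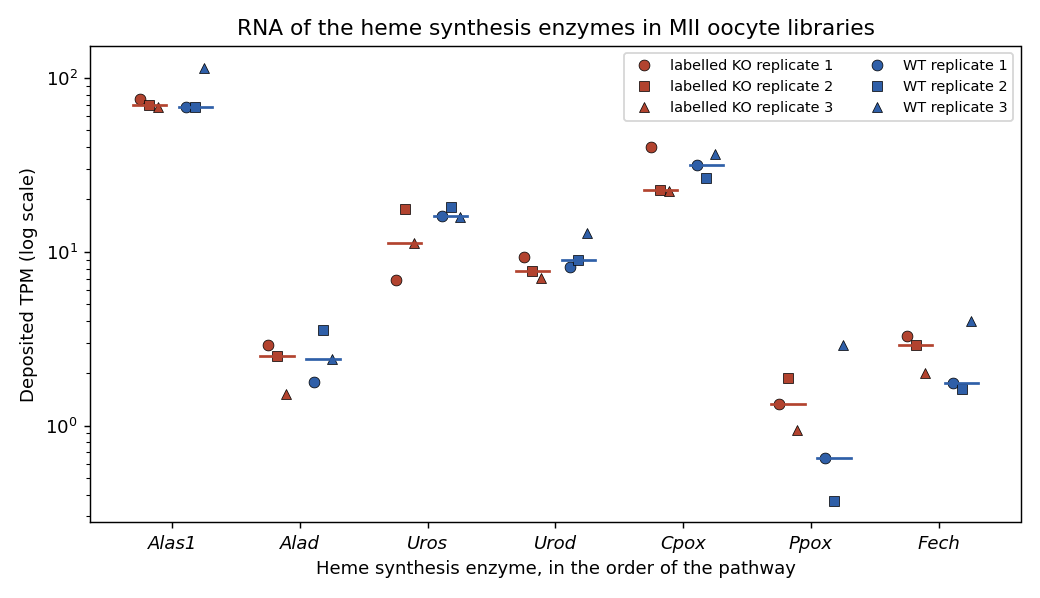
Deposited TPM (log scale, y axis) of the 7 heme synthesis enzymes in pathway order (x axis), with 1 point per library, libraries labelled KO in red on the left and WT libraries in blue on the right of each gene, and a line at each group's median. Alas1 lies between 67.6 and 115 TPM and Ppox between 0.37 and 2.91 TPM; the triangle of WT replicate 3 is the highest point of Alas1, Urod, Ppox and Fech.

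Stretches of promoter are shown for 4 of the genes, to show where motifs of known factors stand in them. RefSeq windows (GRCm38.p6) of the 250 bases before annotated transcript starts were found for 6 of the 7 genes, in 9 windows, and both strands were searched for 6 motifs. These were the core site of nuclear respiratory factor NRF1, an activator of the rat Alas1 gene, whose letters are the capitals of the Alas1 stretch, and CACGTG (the E-box), GGGCGG (the GC box), CCAAT (the CCAAT box), TATAAA and TGACGTCA. The NRF1 core was found in a single member window, of Alas1, and in 0.78% of all 32851 windows. The stretch that holds it lies 176 to 205 bases before the inner of the Alas1 starts, inside the gene as annotated from its outer start. The E-box, in 6.02% of all windows, was found in windows of Alad, Uros and Urod, and the Uros window also covers the start of the overlapping gene Bccip. The CCAAT box, in 33.9% of all windows, was found in Alad and Urod and 4 times in Ppox (once on the other strand, as ATTGG), which held no other motif of the set. The GC box, in 32.7% of windows, was found in Alas1, Alad, Uros and Urod. TATAAA (12.4%) and TGACGTCA (1.55%) were found in no member window, and Cpox held none of the 6. The capitals mark the motif in each stretch, printed 5′ to 3′ on the gene's strand, which is the minus strand for all 4: Alas1 from chr9:106247906-106247935, Alad from chr4:62520151-62520180, Urod from chr4:116994445-116994474 and Ppox from chr1:171281221-171281306. A match of letters is a description and not a bound site, and no binding was measured here.
Alas1: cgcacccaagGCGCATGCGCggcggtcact
Alad: gctccgaatgccCACGTGgaccccctcggg
Urod: cactggatcggtCACGTGgttctcaatatg
Ppox: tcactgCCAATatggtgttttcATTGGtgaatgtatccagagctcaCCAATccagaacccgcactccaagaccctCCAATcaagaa

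Alas1 (ENSMUSG00000032786, chromosome 9, 106233455 to 106247954, GRCm38.p6) encodes the housekeeping form of aminolevulinate synthase, the mitochondrial enzyme that joins glycine and succinyl-CoA in the rate-limiting step of most cells. It had 52.1, 60.1 and 62.9 CPM in the libraries labelled KO, against 53.8, 54.0 and 94.2 CPM in the WT libraries. WT replicate 3 lay above all other libraries, which spanned 1.21-fold from lowest to highest. On the log2 scale the difference was -0.21 by edgeR (adjusted p = 0.871, SE 0.24). It turned to 0.11 when WT replicate 3 was left out (adjusted p = 0.841, SE 0.14). The 95% interval of the fold without that library was 0.876 to 1.34. In TPM, WT replicates 1 and 2 had 67.61 and 67.59, just below the 68.3 to 75.1 TPM of the libraries labelled KO. WT replicate 3 had 114.54 TPM. This order did not hold in CPM, where KO replicate 1 (52.1 CPM) lay below WT replicates 1 and 2. TPM divides by length, and the deposited Alas1 length was shortest in KO replicate 1 (1114 bases, against 1220 to 1393 bases elsewhere). The means were 71.2 ± 3.55 TPM in the libraries labelled KO and 83.2 ± 27.1 TPM in the WT libraries (SD, n = 3 each).

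Alas2, the erythroid aminolevulinate synthase and not among the 7, was almost without reads. It had 0, 2 and 19 expected counts in the libraries labelled KO, against 0, 0 and 2 in the WT libraries, and did not pass the count filter. Of 12 erythroid markers 11 were in the files. The red cell genes Slc4a1 and Klf1 had 0 counts in all 6 libraries, and no globin gene of the list had more than 9 counts in any. The 11 markers summed to 10.2, 6.72 and 11.1 CPM in the libraries labelled KO and 6.44, 5.93 and 29.5 CPM in the WT libraries. Most of each sum was Epb42 (5.45 to 10.5 CPM) or, in WT replicate 3, Gata1 (18.3 CPM, against at most 0.876 CPM elsewhere).

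Alad (ENSMUSG00000028393, chromosome 4, 62505984 to 62520063) encodes the cytosolic enzyme that joins a pair of aminolevulinate molecules into porphobilinogen. It had 51, 35 and 35 expected counts in the libraries labelled KO, against 30, 57 and 48 in the WT libraries, which is 2.23, 1.96 and 1.23 CPM against 1.31, 2.77 and 1.66 CPM. The groups overlapped, with the lowest value in KO replicate 3 and the highest in WT replicate 2. For Alad the log2 fold change came to -0.08 (SE 0.50, adjusted p = 0.985, edgeR), with a 95% interval in fold of 0.422 to 2.12. Per length, Alad averaged 2.31 ± 0.724 TPM in the libraries labelled KO and 2.58 ± 0.881 TPM in the WT libraries (SD, n = 3 each).

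Uros (ENSMUSG00000030979, chromosome 7, 133686142 to 133710467) encodes uroporphyrinogen III synthase, which closes the ring. It had 7.27, 17.0 and 12.2 CPM in the libraries labelled KO, against 16.5, 19.8 and 14.1 CPM in the WT libraries. KO replicate 1 was the lowest library, and KO replicate 2 lay inside the WT range. For Uros edgeR gave a log2 fold change of -0.47 (adjusted p = 0.801, SE 0.33). It was -0.20 without KO replicate 1, -0.78 without KO replicate 2 and -0.58 without WT replicate 3, none of which passed the test. Uros overlaps Bccip by 1135 bases in the RefSeq annotation, and the strand setting of the counting is not given, so reads in that stretch may belong to either gene. The expected counts of Uros were whole to within 0.005 in all 6 libraries. Per length, Uros averaged 11.9 ± 5.40 TPM in the libraries labelled KO and 16.6 ± 1.22 TPM in the WT libraries (SD, n = 3 each).

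Urod (ENSMUSG00000028684, chromosome 4, 116989965 to 116994436) encodes the cytosolic uroporphyrinogen decarboxylase. It had 8.63, 7.67 and 7.54 CPM in the libraries labelled KO, against 7.80, 7.93 and 11.4 CPM in the WT libraries. Leaving WT replicate 3 aside, the other 5 libraries spanned 1.14-fold, the narrowest spread of the 7 genes in CPM. Urod differed by -0.19 on the log2 scale (adjusted p = 0.899, SE 0.27, edgeR), and by 0.02 without WT replicate 3 (SE 0.26). Per length, Urod averaged 8.04 ± 1.11 TPM in the libraries labelled KO and 9.97 ± 2.48 TPM in the WT libraries (SD, n = 3 each).

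Cpox (ENSMUSG00000022742, chromosome 16, 58670208 to 58680391) encodes coproporphyrinogen oxidase of the mitochondrial intermembrane space. It had 52.8, 41.5 and 49.9 CPM in the libraries labelled KO, against 46.1, 52.7 and 51.1 CPM in the WT libraries. The groups overlapped almost wholly, and WT replicate 3 lay between the other WT libraries. Cpox had a log2 fold change of -0.06 (adjusted p = 0.947, SE 0.14, edgeR), with a 95% interval in fold of 0.762 to 1.22. Per length, Cpox averaged 28.2 ± 9.98 TPM in the libraries labelled KO and 31.5 ± 4.92 TPM in the WT libraries (SD, n = 3 each).

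Ppox (ENSMUSG00000062729, chromosome 1, 171276991 to 171281193) encodes protoporphyrinogen oxidase of the inner mitochondrial membrane, the step before iron is inserted. It had 31, 38 and 36 expected counts in the libraries labelled KO, against 18, 9 and 102 in the WT libraries, or 1.36, 2.13 and 1.27 CPM against 0.789, 0.438 and 3.52 CPM. WT replicate 3 was the highest library and the other WT replicates the lowest, with all 3 libraries labelled KO in between. In the 6 libraries edgeR gave -0.01 on the log2 scale (adjusted p = 0.998, SE 0.80). With WT replicate 3 left out the value was 1.35 (adjusted p = 0.522, SE 0.70), and the groups then did not overlap, as was so for 28.5% of the genes tested in those 5 libraries. The 9 counts of WT replicate 2 carry an exact Poisson 95% interval of 4.12 to 17.1, and the 36 counts of KO replicate 3 one of 25.2 to 49.8, both for counting error only. In WT replicate 3 Ppox was 5.74 times the mean of the other WT libraries in CPM. Per length, Ppox averaged 1.38 ± 0.472 TPM in the libraries labelled KO and 1.31 ± 1.39 TPM in the WT libraries (SD, n = 3 each).

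Fech (ENSMUSG00000024588, chromosome 18, 64456542 to 64489098) encodes ferrochelatase, the iron-inserting enzyme that needs an iron-sulfur cluster. It had 94, 84 and 84 expected counts in the libraries labelled KO, against 70, 51 and 143 in the WT libraries, or 4.12, 4.70 and 2.96 CPM against 3.07, 2.48 and 4.93 CPM. The groups overlapped: KO replicate 3 lay below WT replicate 1, and WT replicate 3 lay above every other library. Fech had a log2 fold change of 0.16 (adjusted p = 0.942, SE 0.40, edgeR). Its value without WT replicate 3 was 0.50 (adjusted p = 0.719, SE 0.39). The fold interval in the 6 libraries ran from 0.585 to 2.15. Per length, Fech averaged 2.73 ± 0.652 TPM in the libraries labelled KO and 2.45 ± 1.32 TPM in the WT libraries (SD, n = 3 each).

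Of the 7 enzymes, 3 were over 1.5 times higher in WT replicate 3 than in the mean of the other WT libraries in CPM: Alas1 (1.75), Fech (1.78) and Ppox (5.74). Urod stood at 1.45, Cpox at 1.03, Alad at 0.810 and Uros at 0.776. Over all tested genes with a count in WT replicates 1 or 2, 29.4% were over 1.5 times higher there, and the median ratio was 1.03. The summed TPM of the 7 was 189 in that library, against 139, 125 and 113 in the libraries labelled KO and 128 and 127 in the other WT libraries.

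The deposited files also give each gene a transcript length per library, which RSEM averages over the transcripts to which it assigned reads. The length of Cpox varied most among the 7, with 1915, 2563 and 2834 bases in the libraries labelled KO, against 2154, 2662 and 2181 bases in the WT libraries. Fech followed with 1826, 2286 and 1965 bases, against 2531, 2112 and 1966 bases. Neither gene's lengths separated the groups. The longest over the shortest length was 1.48 for Cpox and 1.39 for Fech, and 1.02 for Alad, where the median over tested genes with several transcripts was 1.15. Since TPM divides by length, KO replicate 1 had 1.78 times the Cpox TPM of KO replicate 3 but 1.06 times its CPM. Of the 42 expected counts of the 7 genes, 40 were whole to within 0.005, as were 82.8% of the values of all tested genes. The exceptions were Alas1 in KO replicate 3 and Ppox in WT replicate 3. Values that are not whole arise where RSEM shares a read between genes.

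**Figure D3:**
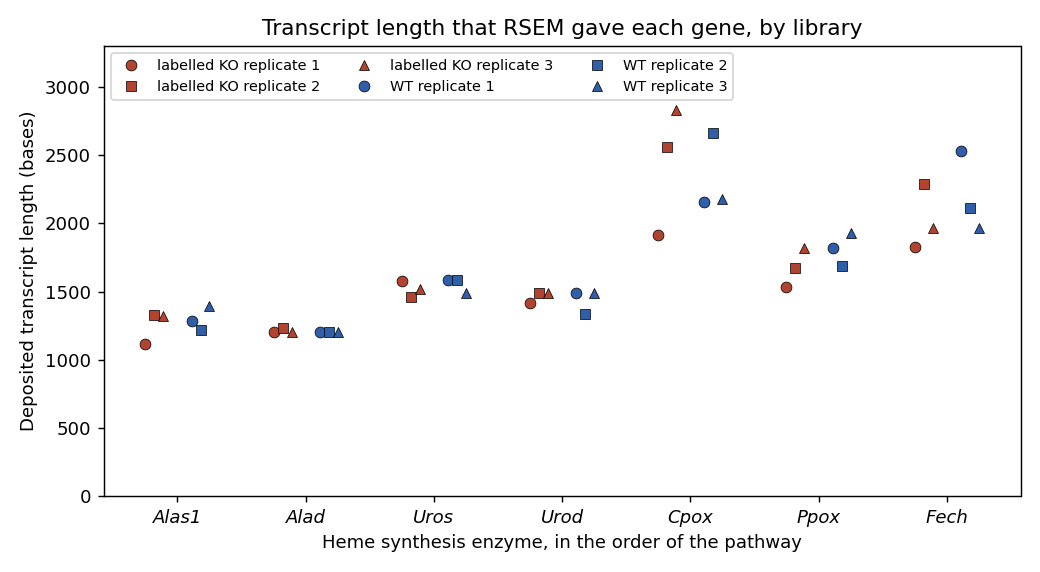
Transcript length in bases (y axis, from 0) that the deposited files give each of the 7 heme synthesis enzymes (x axis), with 1 point per library, libraries labelled KO in red on the left and WT libraries in blue on the right. Cpox runs from 1915 to 2834 bases and Fech from 1826 to 2531 bases, while Alad stays between 1206 and 1232 bases.

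The genes with the most similar profile to each enzyme were found by the root mean square difference of centred log2 CPM over the 6 libraries, among 6423 or 6424 genes. For Alas1 they were Ppp1ca (0.06) and Gemin7 (0.06), and for Urod Ube2j2 (0.02) and Ccnh (0.03), where the medians over all genes were 0.40 and 0.33. Sacm1l (0.05) was among the nearest to Cpox. Alad was nearest to Zfp111 (0.12) and Lats1 (0.13), Uros to Chst11 (0.18) and Enox2 (0.21), and Fech to Trmt10c (0.10) and Slc39a9 (0.12). The ribosomal protein gene Rpl10 (0.23) was among the nearest to Ppox, against a median of 0.95. Without WT replicate 3, only Ccnh among these 12 genes was again 1 of the nearest 2 genes.

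The genes around the pathway gave no call either. In 7 lists of heme metabolism with 67 genes, 55 passed the count filter. Of these, 0 were called higher or lower in the 6 libraries, where 0.0146% of all genes tested were called. Without WT replicate 3, 0 of 56 were called, where the share over all genes tested was 0.651%. At such shares, 0 calls do not set these genes apart from the others. Their counts and medians are given list by list, with the values of the genes of smallest p.

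Of 14 genes for precursor supply, mitochondrial transport and partners of ferrochelatase, 12 were tested (median log2 fold change 0.01, and 0.06 without WT replicate 3). Abcb10, a mitochondrial transporter that associates with ferrochelatase and mitoferrin, had 0.789, 0.392 and 0.564 CPM in the libraries labelled KO, against 1.05, 1.95 and 2.93 CPM in the WT libraries (log2 fold change -1.75, adjusted p = 0.766, edgeR). Every library labelled KO lay below every WT library, where 12.4% of all genes tested had groups that did not overlap. Tmem14c, which carries protoporphyrinogen across the inner membrane, had 197, 196 and 175 CPM, against 263, 174 and 325 CPM in the WT libraries (-0.43). Suclg1, a subunit of the enzyme of succinyl-CoA, had 17.7, 21.4 and 32.6 CPM, against 15.2, 17.9 and 17.4 CPM (0.51). Tspo, a porphyrin-binding protein gene of the outer mitochondrial membrane named after its values were seen, had 2.41, 5.49 and 4.02 CPM in the libraries labelled KO, against 0.745, 0.632 and 29.1 CPM in the WT libraries. Its log2 fold change of -1.36 (adjusted p = 0.844, edgeR) turned to 2.51 without WT replicate 3 (adjusted p = 0.0919), the smallest p of the list in the 5 libraries.

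Of 10 genes for the turnover and transcription of Alas1, 9 were tested (median -0.28, and -0.01 without WT replicate 3). Nrf1, the factor named above, had 40.4, 33.8 and 31.9 CPM in the libraries labelled KO, against 49.4, 36.3 and 46.9 CPM in the WT libraries (log2 fold change -0.32). The mitochondrial protease subunit Clpp had 1.62, 2.91 and 4.55 CPM, against 1.36, 0.0973 and 2.14 CPM (1.32, and 2.04 without WT replicate 3, adjusted p = 0.417, edgeR). Tfam, the mitochondrial DNA packaging factor, had 8.32, 9.69 and 7.02 CPM, against 10.8, 9.24 and 10.7 CPM (-0.30). In each of these genes the groups overlapped, and none was called.

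All 4 genes for heme a and heme c assembly were tested (median 0.13, and 0.29 without WT replicate 3). Cox10, which begins heme a synthesis, was abundant, with 314, 294 and 338 CPM in the libraries labelled KO and 318, 335 and 240 CPM in the WT libraries (log2 fold change 0.09, and -0.05 without WT replicate 3). Cox15, the next step, had 2.32, 4.42 and 2.61 CPM, against 1.80, 1.65 and 3.17 CPM (0.49). Surf1, a cytochrome oxidase assembly factor, had 8.63, 8.06 and 6.52 CPM, against 9.59, 9.58 and 11.6 CPM (-0.41). The libraries labelled KO all lay below the WT libraries for Surf1, a gene chosen for its small p, where the groups of 12.4% of all genes tested did not overlap, and it was not called (adjusted p = 0.787, edgeR).

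Of 4 genes for heme breakdown, 2 were tested (median -0.14, and 0.47 without WT replicate 3). The heme oxygenase gene Hmox2 had 11.4, 9.24 and 13.2 CPM in the libraries labelled KO, against 7.71, 6.95 and 27.3 CPM in the WT libraries. Blvra, which reduces biliverdin to bilirubin, had 61.6, 67.5 and 62.0 CPM, against 54.4, 48.0 and 84.5 CPM. For both genes the libraries labelled KO lay above WT replicates 1 and 2 and below WT replicate 3, and the log2 fold changes of -0.32 and 0.03 became 0.62 and 0.32 without that library (adjusted p = 0.410 and 0.391, edgeR). With WT replicate 3 left out, 28.5% of all genes tested had groups that did not overlap in CPM. The inducible oxygenase gene Hmox1 did not pass the filter and had 33.2 CPM in WT replicate 3, where the immune markers were high, and at most 1.85 CPM elsewhere.

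Of 9 genes for heme transport and binding, 4 were tested (median 0.23, and 0.60 without WT replicate 3). Pgrmc2, a heme chaperone, had 11.7, 10.97 and 12.3 CPM in the libraries labelled KO, against 8.02, 8.36 and 8.83 CPM in the WT libraries. Every library labelled KO lay above every WT library, against 12.4% of genes tested without overlap, and the gene was not called (log2 fold change 0.47, adjusted p = 0.766, edgeR). The heme importer gene Slc48a1 had 2.10, 3.14 and 5.78 CPM, against 2.98, 1.56 and 17.9 CPM (-1.02, and 0.70 without WT replicate 3). The exporter gene Abcg2 had 1.84, 0.224 and 0.846 CPM, against 0, 0.146 and 0.966 CPM (1.35, and 3.68 without WT replicate 3, adjusted p = 0.360, edgeR).

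All 8 genes for heme sensing were tested (median -0.58, and -0.08 without WT replicate 3). Mafk and Mafg, the small partners of the heme-regulated repressor BACH1, had 7.66 and 42.2 CPM in WT replicate 3. In the libraries labelled KO Mafk had 0.448 to 0.613 CPM and Mafg 9.81 to 9.91 CPM, and in WT replicates 1 and 2 they had 0.632 to 0.876 and 8.07 to 9.29 CPM. The oxidative stress factor gene Nfe2l2 had 41.9, 41.1 and 46.8 CPM, against 53.6, 37.3 and 99.0 CPM in the WT libraries. The log2 fold changes of -2.55, -1.01 and -0.55 for Mafk, Mafg and Nfe2l2 became -0.54, 0.19 and -0.07 without WT replicate 3, and none was called.

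Of 18 genes for heme proteins and related enzymes, not all of which carry heme (Sqle does not), 16 were tested (median -0.01). Cyb5a, the cytochrome b5 of the endoplasmic reticulum, had 26.1, 76.2 and 96.8 CPM in the libraries labelled KO, against 17.1, 9.78 and 19.97 CPM in the WT libraries. Every library labelled KO lay above every WT library. For Cyb5a edgeR gave 2.09 on the log2 scale (SE 0.49, adjusted p = 0.612), and 2.30 without WT replicate 3 (adjusted p = 0.0866). The sterol demethylase gene Cyp51 had 6.88, 10.1 and 8.39 CPM, against 4.12, 6.81 and 5.07 CPM (0.66). Sqle, the squalene epoxidase gene, had 9.73, 12.4 and 7.54 CPM, against 7.19, 7.10 and 5.45 CPM (0.59). The groups overlapped for neither, and neither was called. These genes were chosen for their small p, and 12.4% of all genes tested had groups that did not overlap. The lowest log2 fold changes of the list, picked out after their values were seen, were those of Ptgs2 (-3.32), a prostaglandin synthase gene, and Cat (-3.30), the catalase gene. Both were high in WT replicate 3 alone (27.7 and 35.4 CPM, against at most 1.96 and 1.94 CPM in the other libraries), and without it their values were 0.92 and 0.96 (adjusted p = 0.884 and 0.837, edgeR). The 15 genes listed as markers of granulosa and cumulus cells, which surround the oocyte, summed to 78.0, 108 and 164 CPM in the libraries labelled KO. In the WT libraries they summed to 85.1, 78.4 and 102 CPM. The most abundant, Cyp19a1 (51.2 to 64.7 CPM) and Nr5a2 (7.76 to 12.2 CPM), varied little between libraries. Both were highest in WT replicate 2, where 9 of the 15 had no count, so the sum is not a measure of those cells. Of the 15 markers, 3 were higher in every library labelled KO than in every WT library and 0 were lower in all. Groups did not overlap for 12.4% of all genes tested, but only 10 of these 15 markers passed the count filter. The 2 shares are therefore over unlike sets of genes. Of the 15 oocyte markers, all tested, 1 was higher in every library labelled KO than in every WT library and 3 were lower. Hsd17b1 had 2.15, 12.5 and 20.1 CPM in the libraries labelled KO, against 1.10, 0 and 0.483 CPM in the WT libraries. Inhbb had 2.15, 4.87 and 13.04 CPM, against 0.0438, 0 and 0 CPM, and Fshr had 1.31, 0.728 and 4.90 CPM, against 0.394, 0 and 0.138 CPM. Inhba had 1.67, 5.09 and 20.7 CPM, against 0.394, 0.243 and 5.14 CPM. Other markers of the list went another way. Ptgs2 (27.7 CPM, as above), Ptx3 (3.28 CPM) and Star (2.07 CPM) were highest in WT replicate 3. Inha overlapped, with 0.219, 4.37 and 36.5 CPM in the libraries labelled KO, against 5.7, 0.146 and 0.276 CPM. Among the libraries labelled KO, Hsd17b1, Inhbb, Inhba, Inha, Has2, Star and Foxl2 were, like Cyb5a, lowest in replicate 1 and highest in replicate 3. The rest of the list did not have this order. Fshr was lowest in KO replicate 2, and Nr5a2, Ptgs2, Tnfaip6 and Ptx3 were highest there. Cyp19a1 and Amh were highest in KO replicate 1, and Cyp11a1 had no count in the libraries labelled KO. The part of these markers' cells in the Cyb5a values was not tested.

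**Figure D4:**
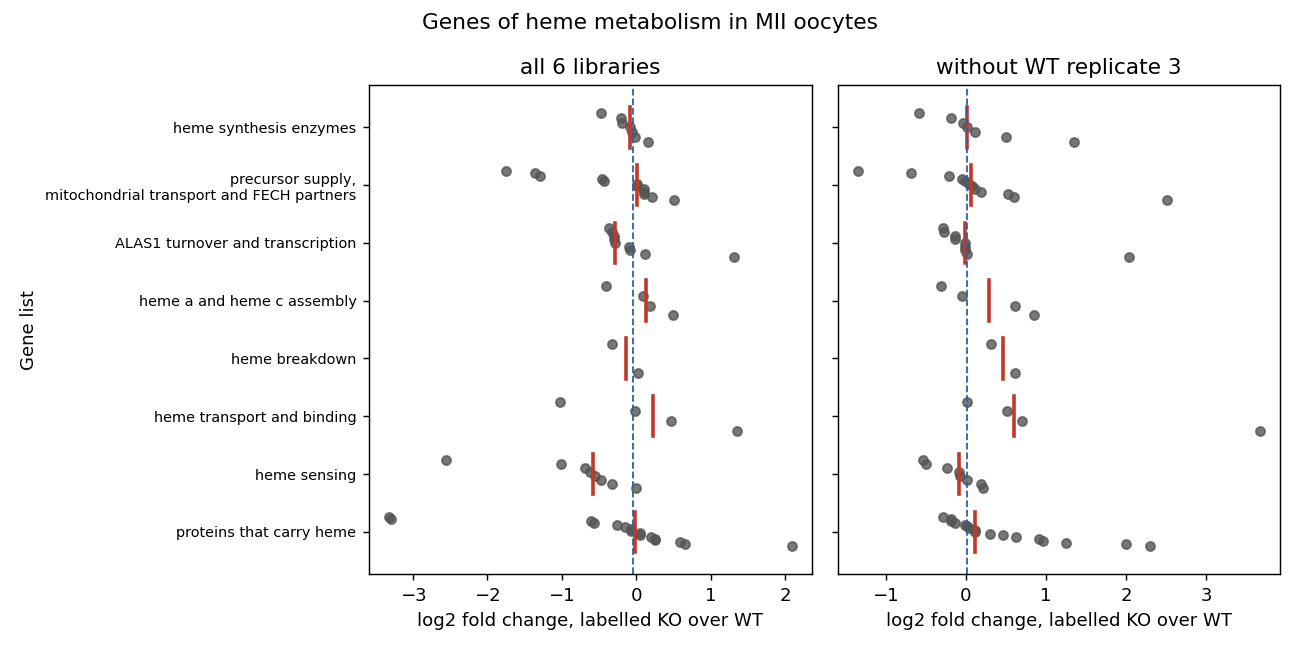
Log2 fold change in the libraries labelled KO over the WT libraries (x axis) of each tested gene of heme metabolism (points), by gene list (y axis), with the list median as a red bar and the median of all genes tested as a dashed blue line, for all 6 libraries (left) and without WT replicate 3 (right). The heme sensing list has a median of -0.58 on the left and -0.08 on the right. None of the genes plotted was called, beside 0.0146% (left) and 0.651% (right) of all genes tested. The list shown as proteins that carry heme also holds related enzymes without heme.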

How the data were processed

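Oocyte RNA-seq was deposited as RSEM gene tables, 1 per library. Per the file headers they hold expected counts, TPM and FPKM, which the authors scaled to length and library in the last 2. The submitters' processing notes name RSEM 1.3.1, STAR 2.6.1c, DESeq2 1.42.1 and Trim Galore 0.4.5 and the build mm10/GRCm38, without roles. Annotation release and strand setting are not given in the sources used here. FPKM values deposited by the authors and the sperm files were not used, and blastocysts were not analysed here. A symbol was found for 55144 of 55471 IDs. Gcat matched 2 IDs, of which the first was used.

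Expected counts were rounded and tested over all genes with edgeR 4.0.16 in R 4.3.3 (filterByExpr, TMM factors, quasi-likelihood test, genotype as the only term, Benjamini-Hochberg adjustment, threshold 0.05). Standard errors are the log2 fold change divided by the root of F. CPM values use TMM-scaled library sizes, and log2 CPM a prior count of 2. Alternatives used DESeq2 1.42.0, limma 3.58.1, RLE factors, library totals, other filters, log2 of TPM plus 1 or 0.1, the replicate block and 5 libraries. The kinds of fit were tested on simulated counts. Members and lists were chosen with earlier results of these data known. Named were all members, the 3 genes of smallest p in each list, the 2 most abundant markers of each marker list, and the 2 genes nearest each member (mean log2 CPM 3 or more); other genes were named after their values were seen. H1foo and Obox5 led the oocyte markers, with 6306 to 8588 and 3441 to 6148 CPM. Some genes that this rule names are not reported here.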

Additional observations from a re-analysis of the deposited data

How the results depend on the processing

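None of the 7 enzymes passed the test under any of the 20 alternatives run for each (adjusted p from 0.439 to 0.999). Uros stayed negative in all 20. Without WT replicate 3, the unadjusted p of Uros was 0.0445 with limma-voom and 0.0491 with edgeR and the replicate block (adjusted p = 0.456 and 0.577). Of 14122 genes tested, limma-voom then had 823 higher and 686 lower at an unadjusted p under 0.05. The replicate block had 832 higher and 386 lower. Leaving out 1 library at a time gave log2 fold changes of -0.33 to 0.11 for Alas1, -0.28 to 0.29 for Alad, -0.78 to -0.20 for Uros, -0.27 to 0.02 for Urod, -0.13 to 0.04 for Cpox, -0.44 to 1.35 for Ppox and -0.02 to 0.50 for Fech. Ppox, at -0.01 in the 6 libraries, turned positive with RLE factors (0.01), DESeq2 (0.02), limma-voom (0.27), no count filter (0.002742), log2 of TPM plus 1 with or without a filter (0.19), log2 of TPM plus 0.1 (0.49) and library weights (1.0). Library weights also turned Alas1 (0.06) and Alad (0.20). Without WT replicate 3, DESeq2, limma-voom and the replicate block gave 0.11, 0.11 and 0.06 for Alas1, 0.01, 0.01 and 0.05 for Urod and 1.36, 1.28 and 1.5 for Ppox, and the block gave 0.13 for Alad. Ppox without WT replicate 3 rests on 9 and 18 WT counts.

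The number of genes called, 2 in the 6 libraries, was 101 with DESeq2, 9 with log2 of TPM plus 1 with or without a filter, 12 with log2 of TPM plus 0.1 and 8 with library weights. Leaving out 1 library gave 1 (without KO replicate 1) to 92 (without WT replicate 3). Without WT replicate 3, DESeq2 called 502, limma-voom 11 and the replicate block 37. The cause of these differences was not tested. Same-numbered libraries had correlations of 0.06, -0.11 and 0.01 in their deviations from the group means, and differently numbered ones had -0.13 to 0.13. With so few libraries per group, whether the replicate numbers pair the samples cannot be told from these values. With the replicate block 2 genes were called and the Ppox log2 fold change was 0.51. The order of the enzymes by mean level per length was recomputed with CPM per kb and without WT replicate 3, and the 1 change was that Alad and Fech, whose ranges overlap, changed places without WT replicate 3. Alad, Ppox and Fech had 9 to 143 counts per library. The Ppox counts of WT replicates 3 and 2 differed by more than counting error, with exact Poisson 95% intervals of 83.2 to 124 and 4.12 to 17.1, and how far depth sets the fitted intervals was not tested.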
